A study of Homo sapiens with 20 samples.

Results

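NF-κB transcription factors and the proteins that hold them in check were followed as 10 genes: NFKB1, NFKB2, RELA and RELB, which encode subunits of the factor, NFKBIA, NFKBIE and NFKBIZ, which encode IκB family proteins, TNFAIP3 and BIRC3, which encode ubiquitin-editing regulators of the pathway, and IRF1, a transcription factor gene that NF-κB is known to act on. They were taken by symbol from a table of 36601 genes, and all 10 passed the filter on low counts that left 12149 genes for testing. The RNA came from MDA-MB-231, an established human triple-negative breast cancer cell line, sequenced from the 3' ends of mRNAs in 20 libraries. The series title names c-MYC, photothermal therapy and cancer immunotherapy.

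There were 5 groups of 4 libraries. Untreated cells received neither particles nor light. In the other 4 groups the cells were kept for 4 h with biomimetic nanoparticles at 0.1 mg/ml. Of these groups, 1 was not lit and is called nanoparticles alone. The other 3 were lit for 10 min with 808 nm laser light, with the temperature held at 46, 50 or 54 °C. Each library pooled 2 wells of a single cell line. The sources used here do not give the time from laser to lysis, and laser light without nanoparticles was not analysed here, so that light and heat cannot be told apart.

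In resting cells, NF-κB dimers are held in the cytoplasm by IκB proteins. Signals from cytokine receptors, DNA damage or other stress activate the IκB kinase, IκBα is degraded, and the dimers enter the nucleus. Among the first genes they switch on are their own inhibitors, NFKBIA (IκBα) and TNFAIP3 (A20), so the mRNA of these genes is widely used as a readout of recent NF-κB activity.

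The promoters of NFKBIA, NFKBIZ and IRF1, the 3 members called in a comparison below, are shown with the letters that match the κB consensus, the DNA element that NF-κB binds. Sequences are the 250 bases before the start of transcription in RefSeq on GRCh38.p14, read 5′ to 3′ on the gene's strand, with matches on either strand in capitals. The NFKBIA window is chr14:35404750-35404999 on the minus strand, with its match 81 to 72 bases before the start. NFKBIZ has 2 windows on the plus strand, chr3:101827740-101827989 and chr3:101849264-101849513, for separate starts. The IRF1 window is chr5:132490774-132491023 on the minus strand, with its match 50 to 41 bases before the start.
NFKBIA: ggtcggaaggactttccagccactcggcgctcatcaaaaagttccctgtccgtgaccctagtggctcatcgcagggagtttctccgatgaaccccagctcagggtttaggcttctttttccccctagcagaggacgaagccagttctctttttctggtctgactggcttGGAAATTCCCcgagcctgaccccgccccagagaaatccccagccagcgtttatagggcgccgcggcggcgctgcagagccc
NFKBIZ first start: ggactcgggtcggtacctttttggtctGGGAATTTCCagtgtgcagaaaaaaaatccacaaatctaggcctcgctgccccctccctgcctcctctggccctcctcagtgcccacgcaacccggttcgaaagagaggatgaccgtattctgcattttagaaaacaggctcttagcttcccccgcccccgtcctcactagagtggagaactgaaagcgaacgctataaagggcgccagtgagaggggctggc
NFKBIZ second start: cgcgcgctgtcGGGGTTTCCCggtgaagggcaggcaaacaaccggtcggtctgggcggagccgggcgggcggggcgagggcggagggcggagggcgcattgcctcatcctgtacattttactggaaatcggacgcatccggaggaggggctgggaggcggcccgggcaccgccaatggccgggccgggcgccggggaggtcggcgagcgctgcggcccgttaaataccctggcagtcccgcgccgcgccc
IRF1: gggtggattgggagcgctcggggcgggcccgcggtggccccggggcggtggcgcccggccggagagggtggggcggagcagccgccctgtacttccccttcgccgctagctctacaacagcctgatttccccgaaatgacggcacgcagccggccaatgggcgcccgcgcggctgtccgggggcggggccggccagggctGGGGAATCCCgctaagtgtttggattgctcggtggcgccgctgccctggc

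Of the 10 members, 8 had an entry in the promoter table, with 13 windows in all. NFKBIE and RELB had none. The κB consensus was found in 9 windows of 7 members, and in 9.96% of all 35116 windows, or 11.8% of 27305 genes. The remaining member with an entry was RELA. A heat shock element (3 alternating inverted repeats of GAA and TTC, each 2 bases apart, both strands) was found in 0 members and in 0.441% of all windows. A narrow form of the STAT element, TTCCNGGAA (both strands), was found in 0 members and in 0.968% of all windows. Its general form, TTCNNNGAA, searched after the IRF1 window had been seen, was found in 2 members, IRF1 and RELA, and in 6.57% of all windows. The IRF1 match lies at chr5:132490889-132490897, in lower case in the window above, 124 to 116 bases before the start. These matches describe the letters in the windows only. A match of each of the other 4 members is shown with its flanks to set the cores side by side. For NFKB1 it lies at chr4:102501310-102501319, for NFKB2 at chr10:102395684-102395693, for TNFAIP3 at chr6:137867204-137867213 and for BIRC3 at chr11:102317285-102317294, all on the plus strand.
NFKB1: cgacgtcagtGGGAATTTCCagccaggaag
NFKB2: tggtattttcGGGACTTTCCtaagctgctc
TNFAIP3: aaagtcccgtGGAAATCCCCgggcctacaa
BIRC3: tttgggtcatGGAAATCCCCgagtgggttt

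Total counts ran from 2401179 to 7710976 per library, with group means of 2872172 at 46 °C and 6769583 at 54 °C. Levels are given as CPM, counts scaled to a common library size, and each is relative to the other RNA of its library. Fewer cells and less RNA per cell cannot be told apart in these bulk samples. Of 10 markers of MDA-MB-231, 9 had a mean of at least 10 CPM, with a sum of 4740 to 5940 CPM per library. The sum was 94.7 to 187 CPM for 9 luminal and receptor genes, of which 2 had a mean of at least 10 CPM. It was 0 to 0.993 CPM for lymphocyte genes, with CD2, MS4A1, CD79A and NKG7 at 0. Of 7 macrophage genes 0 reached 10 CPM, with AIF1 and LYZ at 0. Mitochondrially encoded mRNAs took a mean of 4.94% of counts at 46 °C, 17% at 50 °C and 13.8% at 54 °C, against 12% with nanoparticles alone and 11.1% in untreated cells. The nuclear long noncoding RNAs MALAT1, NEAT1 and KCNQ1OT1 together took 0.365%, 0.357% and 0.433% at 46, 50 and 54 °C, against 0.164% with nanoparticles alone and 0.222% in untreated cells. Histone genes took 0.104%, 0.138% and 0.0813% in the laser groups, against 0.07% with nanoparticles alone and 0.0941% in untreated cells. The part of these 3 signs in the results below was not tested.

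NFKBIA mRNA was lower at 46 °C than in every other group, and at 50 and 54 °C it lay near the level of unlit cells. NFKBIA, on chromosome 14 at 35401511 to 35404749 (GRCh38), encodes IκBα, the inhibitor that NF-κB itself induces. In replicates 1 to 4 it had 182, 151, 158 and 129 CPM in untreated cells and 135, 143, 129 and 117 CPM with nanoparticles alone. At 46 °C it had 74, 41.5, 80.7 and 78.4 CPM. At 50 °C the values were 154, 132, 147 and 138 CPM, and at 54 °C 139, 107, 117 and 144 CPM. The highest library at 46 °C was below the lowest library of each other group, while the other groups overlapped their neighbours in level. Of all tested genes 6.96% had the 46 °C and nanoparticle-alone groups apart. The share was 7.10% for 50 against 46 °C and 5.73% for 54 against 46 °C.

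The means were 131 ± 10.8 CPM (SD, n = 4) with nanoparticles alone and 68.7 ± 18.3 CPM at 46 °C. NFKBIA fell at 46 °C against nanoparticles alone by 0.93 ± 0.17 on the log2 scale (SE; 95% interval −1.27 to −0.60; edgeR adjusted p = 0.000269), which is 1.91-fold lower. It was the only member of 10 called in this comparison, in which 0.346% of all tested genes were called lower. From 46 to 50 °C it rose by 1.06 ± 0.17 (adjusted p = 2.23e-05), and at 54 °C it was 0.89 ± 0.17 above 46 °C (adjusted p = 0.000647). These comparisons share the 46 °C libraries. Against nanoparticles alone NFKBIA had 0.12 ± 0.16 at 50 °C and −0.04 ± 0.16 at 54 °C, and neither was called. Within replicates 1 and 2 the difference at 46 °C was −1.27 (adjusted p = 8.29e-05) and within replicates 3 and 4 it was −0.63 (adjusted p = 0.274), so the call was not made in the latter.

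**Figure D1:**
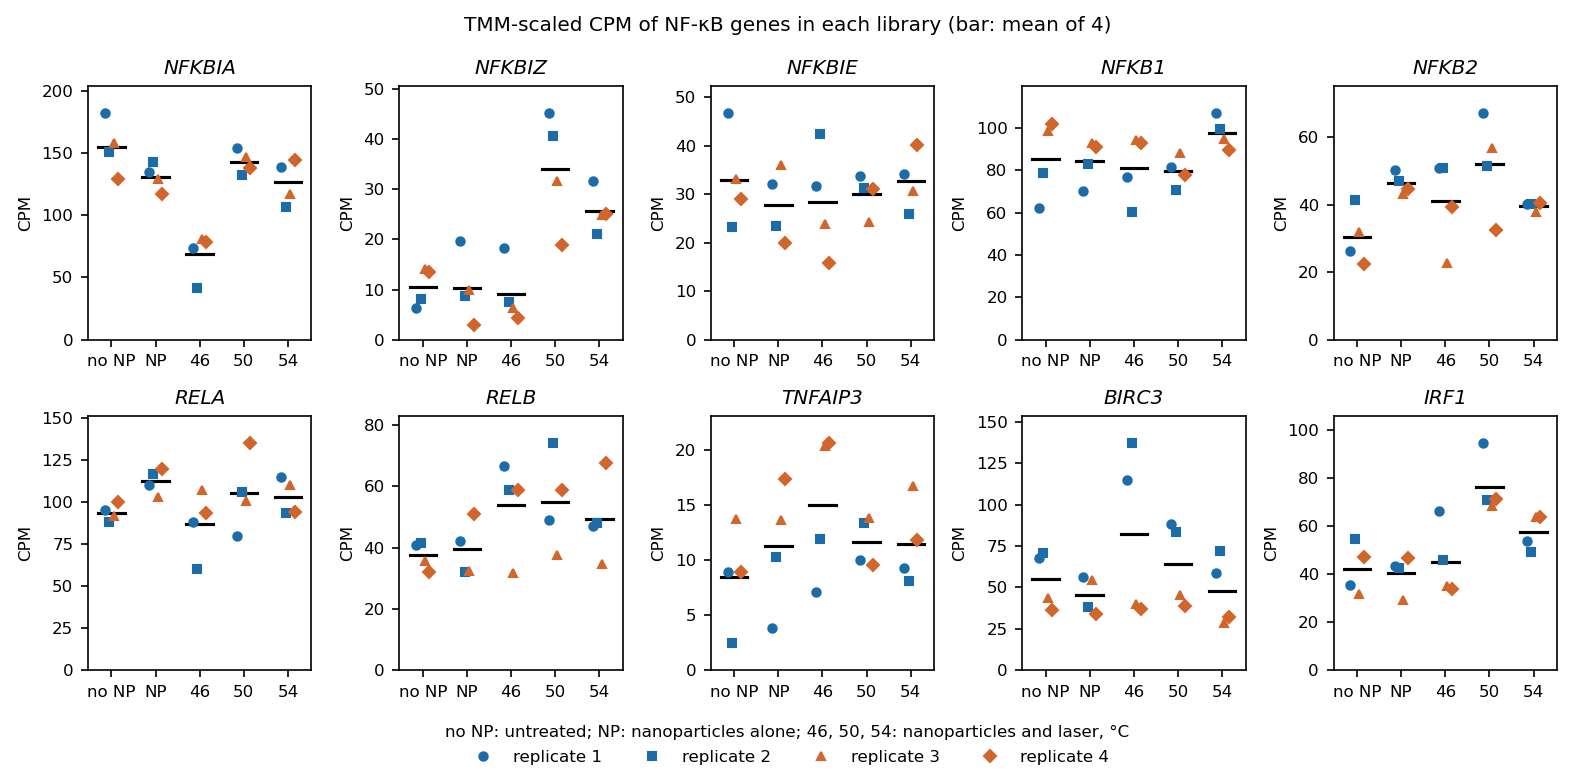
Level of each of the 10 genes in every library, in TMM-scaled CPM on an axis from 0, for untreated cells (no NP), nanoparticles alone (NP) and the laser groups (46, 50 and 54 °C), with a symbol per replicate and a bar for the mean of 4. The 4 libraries at 46 °C lie below all others for NFKBIA, the libraries at 50 °C are high for NFKBIZ and IRF1, and BIRC3 spreads from 36.6 to 137 CPM within the 46 °C group.

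NFKBIZ mRNA was high at 50 °C and lay near the level of unlit cells at 46 °C. NFKBIZ, on chromosome 3 at 101827991 to 101861022, encodes IκBζ, a nuclear member of the IκB family that works with NF-κB dimers at a subset of inflammatory genes. Replicates 1 to 4 had 6.41, 8.09, 14.1 and 13.5 CPM in untreated cells and 19.7, 8.75, 10 and 2.95 CPM with nanoparticles alone. At 46 °C they had 18.3, 7.46, 6.27 and 4.32 CPM. At 50 °C they had 45.2, 40.7, 31.7 and 18.8 CPM, and at 54 °C 31.6, 21.1, 24.9 and 25 CPM. At 54 °C all libraries stood above those with nanoparticles alone, while at 50 °C the lowest library was just under the highest library with nanoparticles alone. The 54 °C and nanoparticle-alone groups were apart for 4.28% of all tested genes.

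At 50 °C, 2 of the 10 members, NFKBIZ and IRF1, rose against nanoparticles alone and 0 fell, where 0.527% of all tested genes were called higher. NFKBIZ went from 10.4 ± 6.96 CPM, on 12 to 77 counts per library, to 34.1 ± 11.7 CPM, on 67 to 172 counts. Its log2 fold change was 1.72 ± 0.41 (95% interval 0.89 to 2.55, edgeR adjusted p = 0.0191). This call was kept in 3 of the 8 fits that each left out 1 library of these groups: it was lost without nanoparticle-alone replicate 2, 3 or 4 and without 50 °C replicate 1 or 2, where the adjusted p reached 0.104 and the log2 fold change stayed between 1.41 and 2.25 over the 8 fits. Within replicates 1 and 2 it was 1.60 (adjusted p = 0.0468), and within replicates 3 and 4 it was 1.99 (adjusted p = 0.152). Against 46 °C the rise at 50 °C was 1.90 ± 0.42 (adjusted p = 0.00672) and the call was kept in 8 of 8 such fits.

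At 54 °C the mean of NFKBIZ was 25.6 ± 4.36 CPM. Its log2 fold change against nanoparticles alone was 1.31 ± 0.41 (unadjusted p = 0.00239, adjusted p = 0.37), which was not called, and against 46 °C it was 1.49 ± 0.41 (adjusted p = 0.0924). Without 46 °C replicate 1, its highest library in that group, the latter became 2.08 with an adjusted p of 0.00726. It was called in 1 of the 8 fits that each left out 1 library of these groups. Over the 8 fits the log2 fold change ran from 1.26 to 2.08 and the adjusted p reached 0.31. The difference between 54 and 50 °C was −0.41 ± 0.39.

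IRF1 mRNA was highest at 50 °C. IRF1, on chromosome 5 at 132481609 to 132490798, encodes a transcription factor of interferon and antigen presentation genes. Replicates 1 to 4 had 35.6, 54.8, 31.5 and 47.2 CPM in untreated cells, 43.3, 42.6, 29 and 46.7 CPM with nanoparticles alone, and 66.3, 45.9, 34.9 and 33.6 CPM at 46 °C. At 50 °C they had 94.4, 71, 68.2 and 71.3 CPM, and at 54 °C 53.8, 49.3, 63.6 and 63.9 CPM. All 4 libraries at 50 °C were above every library of the other groups, and those at 54 °C were above those with nanoparticles alone. Of all tested genes 8.33% had the 50 °C and nanoparticle-alone groups apart, and 4.28% the 54 °C and nanoparticle-alone groups. The share was 7.10% for 50 against 46 °C and 5.13% for 54 against 50 °C.

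From nanoparticles alone to 50 °C IRF1 rose by 0.91 ± 0.22 (95% interval 0.47 to 1.35; adjusted p = 0.0193), from 40.4 ± 7.83 to 76.2 ± 12.2 CPM, which is 1.88-fold. The call was lost without nanoparticle-alone replicate 2 or 3 or 50 °C replicate 1, with an adjusted p of up to 0.132, and was kept in 5 of 8 such fits. Within replicates 1 and 2 it was 0.94 (adjusted p = 0.0473), and within replicates 3 and 4 it was 0.87 (adjusted p = 0.317). At 54 °C the log2 fold change was 0.51 ± 0.22 (adjusted p = 0.79). Between 50 and 46 °C it was 0.75 ± 0.22 (adjusted p = 0.0801), and without 46 °C replicate 1 this became 1.00 (adjusted p = 0.0178). It was called in 1 of 8 such fits, with values from 0.63 to 1.00 and an adjusted p of up to 0.29. DESeq2 gave the same 0.75 with an adjusted p of 0.0262, a call that edgeR did not make. In that comparison DESeq2 adjusted over 4376 genes and edgeR over 12149. IRF1 overlaps the gene C5orf56 on the opposite strand, and the sources used here do not say whether counting used strand. C5orf56 had 7.82 ± 1.3 CPM with nanoparticles alone and 9.53 ± 3.55 CPM at 50 °C. RELA and TNFAIP3 also overlap a gene on the opposite strand.

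**Figure D2:**
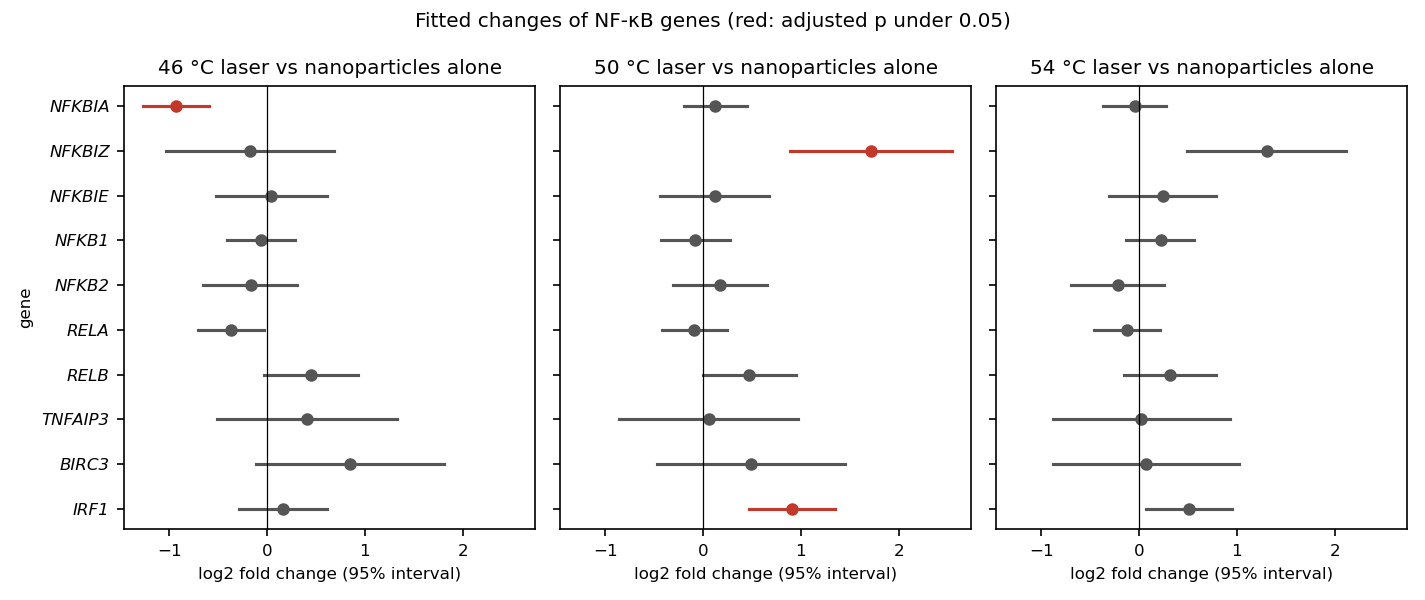
Log2 fold change of each of the 10 genes against nanoparticles alone at 46, 50 and 54 °C, with bars for the 95% interval from the edgeR fit and called values in red. NFKBIA stands below 0 at 46 °C, and NFKBIZ and IRF1 stand above 0 at 50 °C. The 3 comparisons share the libraries with nanoparticles alone.

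At 54 °C, edgeR called 0 of the 10 members against nanoparticles alone, and 2 had an unadjusted p under 0.05. DESeq2 called 0 as well, and 0.123% of all tested genes were called by edgeR. The groups did not overlap for NFKBIZ and IRF1, which were higher, and for NFKB2, which was lower, where 4.28% of all tested genes had groups apart. Between 54 and 50 °C edgeR called 0 members, where 0.198% of all tested genes were called, and 0 reached an unadjusted p below 0.05. DESeq2 called 0 of the 7 members to which it gave an adjusted p there. The 54 and 50 °C groups did not overlap for NFKB1, which was higher at 54 °C, and IRF1, which was lower. Of all tested genes 5.13% had these groups apart. From 46 to 50 °C, NFKBIA and NFKBIZ were the 2 members called, both higher, against 0.584% of all genes, and from 46 to 54 °C NFKBIA alone was called higher, against 0.239%.

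The median log2 fold change of the 10 members against nanoparticles alone was −0.01 at 46 °C, 0.14 at 50 °C and 0.14 at 54 °C, and that of all tested genes was 0.011, 0.018 and 0.008. Heat and early-response genes of the same libraries are given for reference. At 46 °C HSPA1A, which encodes a stress-inducible HSP70, was up by 5.93 on the log2 scale and EGR1, an early-response factor gene, by 6.32, while at 50 °C they had −0.46 ± 0.29 and 0.64 ± 0.41 and were not called.

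The genes of the NF-κB subunits were not called in any of the 7 comparisons. NFKB1, which encodes p105 and its product p50, had group means from 79.7 ± 7.35 CPM at 50 °C to 97.8 ± 7.69 CPM at 54 °C, a difference of 0.30 ± 0.17 on the log2 scale (adjusted p = 0.903), with groups that did not overlap. RELA, which encodes the p65 subunit, had 112 ± 7.71 CPM with nanoparticles alone and 87.3 ± 19.9 CPM at 46 °C, a log2 fold change of −0.37 ± 0.17 (unadjusted p = 0.0339, adjusted p = 0.392). RELB, the partner of p52 in the non-canonical pathway, had 39.4 ± 8.93 CPM with nanoparticles alone, and 54 ± 15.3, 54.8 ± 15.5 and 49.3 ± 13.6 CPM at 46, 50 and 54 °C, with log2 fold changes of 0.45 ± 0.24, 0.47 ± 0.24 and 0.32 ± 0.24. The RELB groups overlapped. The 95% interval of RELB at 46 °C ran from −0.03 to 0.93.

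NFKB2, which encodes p100 and its product p52, was the member with the largest difference between nanoparticles alone and untreated cells, and it was not called. It had 26.3, 41.4, 31.8 and 22.4 CPM in untreated replicates 1 to 4 and 50.4, 47, 43.3 and 44.5 CPM with nanoparticles alone. All 4 libraries with nanoparticles were above all 4 without. The log2 fold change was 0.60 ± 0.24 (unadjusted p = 0.0171, adjusted p = 1). In this comparison edgeR called 0 members and DESeq2 0, 1 member had an unadjusted p below 0.05, and edgeR called 0% of all genes. The groups of RELA did not overlap either, and 2 of 10 members stood apart where 2.73% of all tested genes did. At 46, 50 and 54 °C NFKB2 had 41 ± 13.4, 52 ± 14.5 and 39.7 ± 1.18 CPM.

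BIRC3, which encodes the ubiquitin ligase cIAP2, an NF-κB target that acts in TNF receptor signalling, was spread widely between the replicates of a group. At 46 °C replicates 1 to 4 had 115, 137, 40 and 36.6 CPM, and with nanoparticles alone 56.1, 38.1, 54.3 and 34.1 CPM. At 50 °C they had 88.1, 83.4, 45.1 and 38.7 CPM, at 54 °C 58.9, 71.9, 28.3 and 32 CPM, and in untreated cells 67.8, 71, 43.8 and 36.4 CPM. In 4 of 5 groups, all but nanoparticles alone, replicates 1 and 2 were both above replicates 3 and 4.

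Over 4 libraries a group, BIRC3 had a log2 fold change of 0.85 ± 0.45 at 46 °C (adjusted p = 0.521). Within replicates 1 and 2, a division known from earlier results of these data, it was 1.42 ± 0.22 (adjusted p = 3.72e-05), and within replicates 3 and 4 −0.21 ± 0.34 (adjusted p = 0.969). At 50 °C these values were 0.87 ± 0.22 (adjusted p = 0.0275) and −0.08 (adjusted p = 0.987). Because the division was known from these data, the p-values within the pairs cannot serve as support for a rise. The test of the difference between the pairs of replicates at 46 °C gave 1.62 ± 0.38 with an adjusted p of 0.23, so that it was not called, and 0% of all genes were called by it. The labels name no batch.

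**Figure D3:**
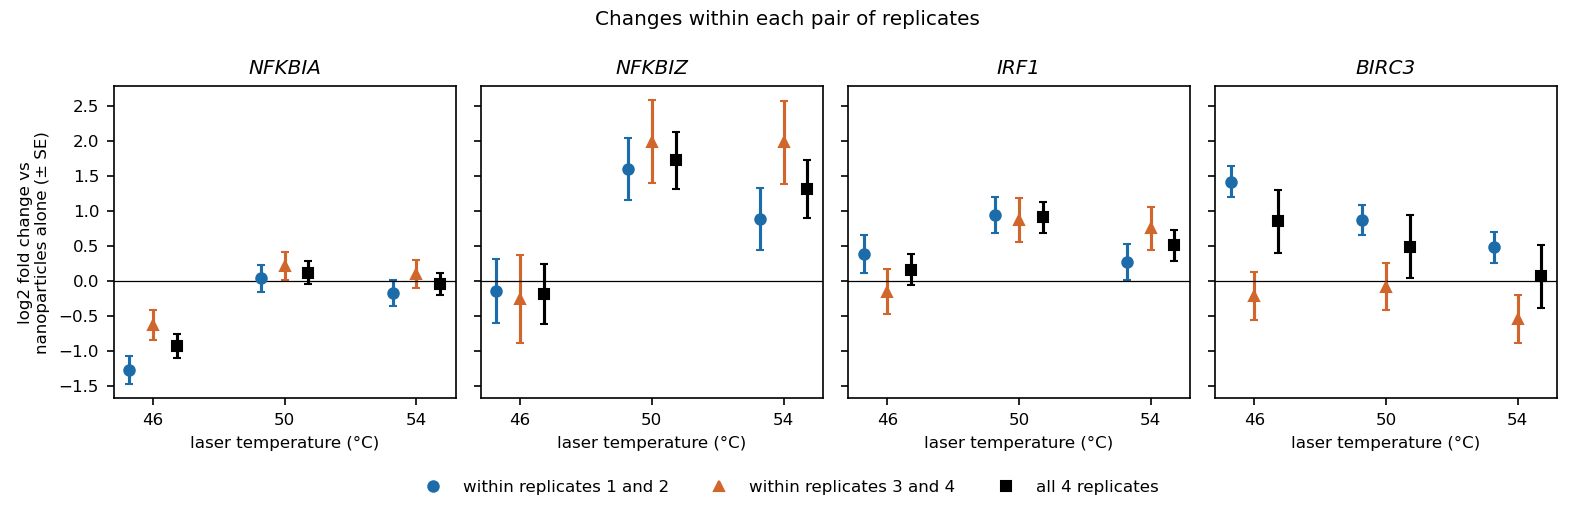
Log2 fold change against nanoparticles alone (± SE) of NFKBIA, NFKBIZ, IRF1 and BIRC3 at 46, 50 and 54 °C, fitted within replicates 1 and 2 (blue), within replicates 3 and 4 (orange) and over all 4 (black). BIRC3 stands at 1.42 in the former and −0.21 in the latter at 46 °C, while NFKBIA is below 0 at 46 °C in both.

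TNFAIP3, which encodes the deubiquitinase A20, and NFKBIE, which encodes IκBε, were not called in any comparison. TNFAIP3 had group means of 8.5 ± 4.61 CPM in untreated cells, 11.3 ± 5.76 with nanoparticles alone, and 15 ± 6.66, 11.7 ± 2.24 and 11.5 ± 3.79 at 46, 50 and 54 °C, on 8 to 102 counts per library. Its log2 fold change at 46 °C was 0.41 ± 0.46 with an interval of −0.51 to 1.33, which holds changes of either sign. Replicates 1 and 2 were both below replicates 3 and 4 in 4 of 5 groups, all but 50 °C. NFKBIE had 33.1 ± 9.96 CPM in untreated cells and 27.9 ± 7.49 with nanoparticles alone. In the laser groups it had 28.5 ± 11.3, 30.1 ± 4.1 and 32.7 ± 6.01 CPM, with log2 fold changes of 0.04 ± 0.28, 0.12 ± 0.28 and 0.24 ± 0.27 against nanoparticles alone.

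The wider pathway was described with 6 lists of 152 genes, of which 139 were tested. Of 30 receptors and adaptors and 20 kinases and ubiquitin enzymes, 0 were called in any comparison. At most 1.22% of all tested genes were called in a comparison, and 0 calls in lists of this size cannot be told apart from that share. Of 23 other NF-κB proteins, IκB proteins and regulators of the pathway tested, 1 was called higher at 46 °C, 2 at 50 °C and 1 at 54 °C, and 0 lower. Of all tested genes 0.617%, 0.527% and 0.0741% were called higher in these comparisons. ZC3H12A, which encodes the endoribonuclease Regnase-1, known to degrade inflammatory mRNAs, rose from 31 to 75.8 CPM at 50 °C (log2 fold change 1.29 ± 0.23; adjusted p = 0.000254) and to 65.8 CPM at 54 °C (1.08 ± 0.22; adjusted p = 0.0177). The call at 54 °C was lost without nanoparticle-alone replicate 4 or 54 °C replicate 1 or 4. From 46 to 50 °C ZC3H12A rose by 1.69 ± 0.23 (adjusted p = 9.89e-07).

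SQSTM1, which encodes the autophagy adaptor p62, rose by 0.50 ± 0.12 at 46 °C (adjusted p = 0.0201) and by 0.69 ± 0.12 at 50 °C (adjusted p = 0.000294). The call at 46 °C was kept in 4 of 8 fits without 1 library. TNIP1, which encodes a partner of A20, rose by 0.54 ± 0.15 from 46 to 50 °C (adjusted p = 0.0473), and that call was kept in 1 of 8.

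Of 33 NF-κB target genes tested, 2 were called at 46 °C, IL1A and IL1B, which encode the interleukin-1 cytokines, where 0.617% of all tested genes were called higher. IL1A rose from 13.2 to 39.2 CPM (1.57 ± 0.34; adjusted p = 0.00568), and the call was lost without 46 °C replicate 1 (adjusted p = 0.0706). IL1B rose from 18.5 to 39.6 CPM (1.10 ± 0.28, adjusted p = 0.0345), and the call was kept in 3 of 8 such fits. At 50 °C IL1A had 30 CPM and IL1B 35.8 CPM, and at 54 °C they had 21.6 and 27.9 CPM. Neither gene was called at 50 or 54 °C, against nanoparticles alone or against 46 °C. Against nanoparticles alone the target list had a median log2 fold change of 0.12 at 46 °C, 0.48 at 50 °C and 0.16 at 54 °C. All tested genes had 0.011, 0.018 and 0.008. At 50 against 46 °C the median of the list was 0.1. At 50 °C 0 genes of the list were called in either comparison. Of 11 IRF and STAT factors and 22 interferon targets tested, 0 were called in any comparison. Of all tested genes 1.22% were called in either direction at 50 °C against nanoparticles alone, the largest share of any comparison. In lists of 11, 22 or 33 genes, 0 calls cannot be told apart from that share. The interferon targets had a median of 0.06 at 50 °C, where IRF1 rose, against 0.018 for all tested genes. Whether these targets followed IRF1 was not tested.

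**Figure D4:**
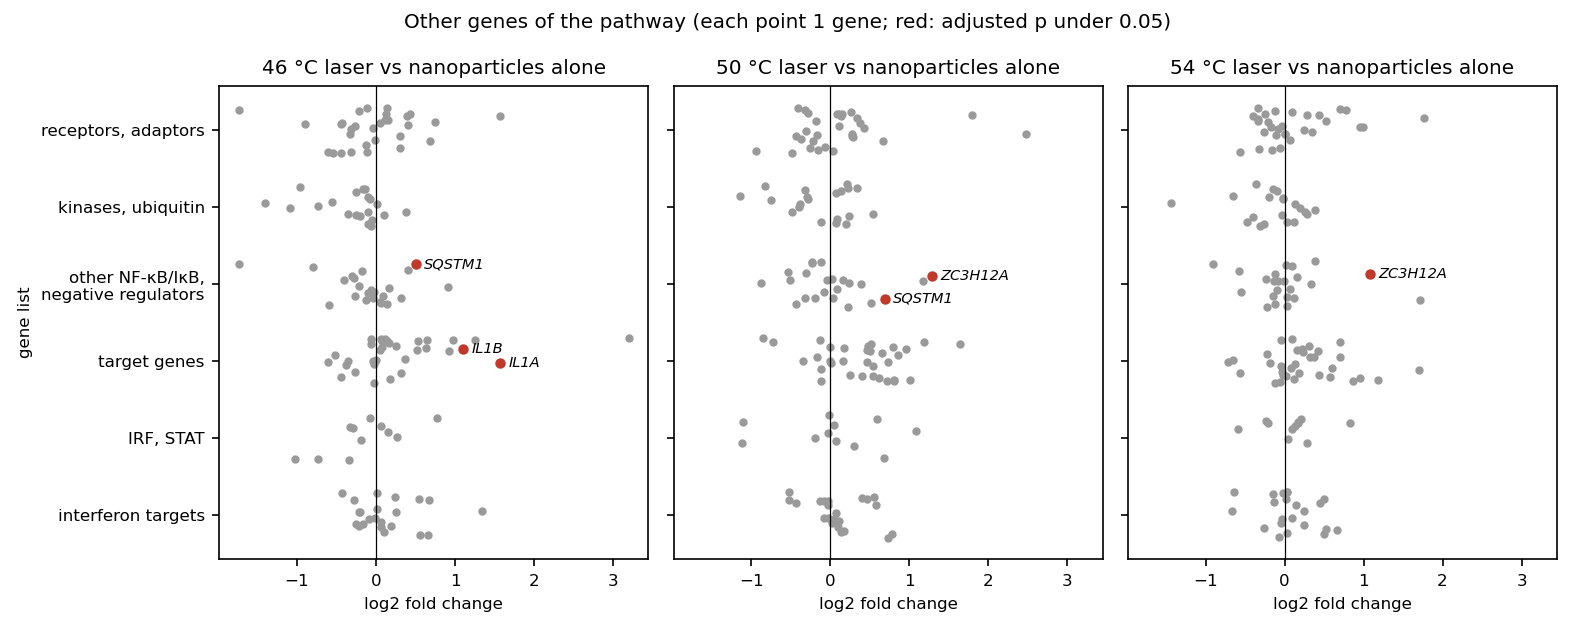
Log2 fold change against nanoparticles alone at 46, 50 and 54 °C for the tested genes of the 6 pathway lists, with a grey point per gene and called genes in red with their names. ZC3H12A is called at 50 and 54 °C, SQSTM1 at 46 and 50 °C, and IL1A and IL1B at 46 °C.

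Genes whose 3 laser fold changes were nearest to those of a member were ranked among 8180 tested genes with a mean of at least 10 CPM, by the root-mean-square difference in log2 fold change. For NFKBIZ they were CSF3, which encodes the cytokine G-CSF, at 0.19, ZC3H12A at 0.31 and CLUAP1 at 0.45. CSF3 had log2 fold changes of 0.06, 1.54 and 1.43 at 46, 50 and 54 °C. For NFKBIA they were DKK1, which encodes a secreted Wnt inhibitor, at 0.05, MED15 at 0.11 and AAAS at 0.12, and DKK1 had −0.85, 0.09 and −0.05. For IRF1 they were SREBF1, which encodes a regulator of lipid synthesis, at 0.04, AHNAK2 at 0.08 and IGF2R at 0.08. This likeness rests on 3 group values that share a control. The SE of the member's own fold changes was 0.16 to 0.17 for NFKBIA, 0.41 to 0.43 for NFKBIZ and 0.22 for IRF1. Most of the distances were below it, so the order of the genes is uncertain.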

How the data were processed

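RNA of 20 libraries was read from the 3' end with a QuantSeq FWD kit, per the labels' protocols. The authors deposited estimated counts per gene. STAR, Salmon and the build GRCh38 are named, per the submitters' processing notes, while versions, annotation, strand setting and any use of molecular identifiers are not given in the sources available here. Between 1.74% and 2.9% of values per library were not whole and were rounded.

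The filter (filterByExpr, count minimum 10, total 15) kept 12149 genes with at least 99.67% of each library's counts. edgeR 4.0.16 in R 4.3.3 was used with TMM scaling, and its robust quasi-likelihood model held the 5 groups as means. P-values were adjusted by Benjamini-Hochberg over the 12149 genes, and calls are at 0.05. The SE is the absolute log2 fold change over the square root of F, and intervals are 95%. There were 7 comparisons, 4 libraries against 4: particles against none, each laser group against nanoparticles alone, and the laser groups against each other. Separate cultures are not stated in the labels, so p-values reflect only the spread between these libraries, which may be technical. Within groups, libraries correlated at 0.891 to 0.942 in log2 CPM and differed in counts beyond sampling noise (chi-square per gene of at least 7.27), so each was counted once. Depth covers counting error only, since PCR copies are not independent molecules.

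The members and lists were chosen with earlier results of these data known. Genes named are the 10 members, at most 3 called genes per pathway list and comparison with the smallest p, HSPA1A, FOS and EGR1, and the 3 genes nearest to each of 3 called members. FOS had log2 fold changes of 5.56 ± 0.91, 0.13 ± 1 and −1.63 ± 1.09 at 46, 50 and 54 °C against nanoparticles alone. It was called at 46 °C only. FOS had 0 to 22 counts per library with nanoparticles alone, 0 to 17 at 50 °C and 0 to 10 at 54 °C. Other genes are named as markers or for overlap. Alternatives were DESeq2 1.42.0, other scalings, no filter, the compared groups alone, the replicate block, leaving out each library, and fits within replicates 1 and 2 or 3 and 4. The scripts were tested on simulated data. Promoters are from RefSeq on GRCh38.p14 and gene positions from GENCODE v29.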

Additional observations from a re-analysis of the deposited data

Results flagged for a closer look

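Of 50 sets of 4 libraries (10 genes in 5 groups), 3 held a library far from the other replicates. Chance gives about 1 in 20 such sets. NFKBIA had 41.5 CPM in 46 °C replicate 2, below the other libraries of that group, and without it the log2 fold change against nanoparticles alone was −0.75 (adjusted p = 0.00731). IRF1 had 94.4 CPM in 50 °C replicate 1, above the others, and without it the log2 fold change against nanoparticles alone was 0.78 (adjusted p = 0.132). NFKB2 had 37.9 CPM in 54 °C replicate 3, in a group that spanned 37.9 to 40.5 CPM.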

How the results depend on the processing

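Over 70 results (10 genes in 7 comparisons) and 1111 values under other settings, 1088 kept their side of the threshold, 13 lost a call and 10 gained one. Most of the 70 results were not called over all libraries, so most kept values were not called in either fit. They say little about how firm the calls are. Of called values 0 changed sign, while 91 uncalled values did. The number of members called moved as follows. Within replicates 1 and 2 it was 2 at 46 °C against nanoparticles alone (1 over all replicates), 3 at 50 °C (2) and 2 at 54 against 46 °C (1). Within replicates 3 and 4 it was 0 at 46 °C, 0 at 50 °C, 1 at 50 against 46 °C (2) and 0 at 54 against 46 °C. Those fits have 2 libraries a group. With no filter on low counts it was 2 at 54 against 46 °C. Without 1 library it was 0 to 2 at 50 °C against nanoparticles alone, 2 to 3 at 50 against 46 °C and 1 to 2 at 54 against 46 °C. DESeq2 called 2 at 50 against 46 °C, NFKBIA and IRF1, and gave NFKBIZ no adjusted p.

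With the replicate number as a block it was 1 at 54 °C against nanoparticles alone (NFKBIZ, 1.46, adjusted p = 0.0486), 3 at 50 against 46 °C (IRF1 added, 0.77, adjusted p = 0.0234) and 2 at 54 against 46 °C. Deviations from the group means correlated weakly by number: 0.02 to 0.07 over 40 same-numbered pairs, none over 0.1, with a median of −0.03 over 120 others. Pairs of unlike number within replicates 1 and 2 or within 3 and 4 had a median of 0.04, and the 80 pairs between these sets had −0.08 to −0.01. Of 20 libraries, 9 correlated best with their own number. Over all genes the block called 161 higher and 108 lower at 46 °C (75 and 42 without), 152 and 181 at 50 °C (64 and 84) and 27 and 19 at 54 °C (9 and 6), and DESeq2 called 115 and 77, 140 and 148, and 25 and 11. Scaling by library totals gave 95 and 33 at 46 °C, 50 and 227 at 50 °C, and 46 and 374 at 50 against 46 °C (71 and 74), where it moved the median of all genes to −0.177. The causes were not tested.

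Under settings that kept all libraries or a pair of replicates, 1 to 6 pathway genes were called at 46 °C, 2 to 10 at 50 °C, 0 to 3 at 54 °C, 2 to 8 at 50 against 46 °C and 1 to 7 at 54 against 46 °C. Limits of depth and replicate spread were not separated for TNFAIP3, with 8 to 102 counts per library.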
